A study of Mus musculus with 18 samples.

Results

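The alpha globin cluster of the mouse and the genes around it were described from 8 peak lists of the histone marks H3K27ac and H3K4me3. Members were 9 protein-coding genes, chosen by name from the 21938 protein-coding genes of GENCODE vM21 outside the mitochondrial genome: Snrnp25, Rhbdf1, Nprl3, Mpg, Hba-x, Hba-a1, Hbq1b, Hba-a2 and Hbq1a, in chromosome order. They lie on chromosome 11 between 32205415 and 32300873 (mm10), and every peak that touched this stretch or the 50 kb on either side was used (chromosome 11, 32155415 to 32350873). This window held 46 peaks of the 8 lists, which hold 6275 to 25750 peaks each. H3K27ac is an acetylation of histone H3 found at active promoters and enhancers, and H3K4me3 is a methylation of the same histone found mainly at promoters.

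All libraries came from bone marrow of adult C57BL6 mice, male by the study's methods, with no transgene, mutation or treatment named in the labels. Erythroblasts (ERY), the nucleated precursors of red cells, were FSCLow, CD44+ and Ter119+ in the sort. The other cell type was immature megakaryocytes (iMK), from which platelet-forming cells mature, sorted as cells with CD41 and CD61 that lacked Ter119, Sca1 and cKit. Cells bearing CD4, CD8, IL7Ra, CD11b, Ly6g or CD45R were left out of both sorts. There were 2 libraries for each mark in each cell type, and the 10 input libraries have no peak list here. The labels number no replicates, so 1 and 2 are names in order of submission. The study's methods allow a replicate to be a separate set of animals or a separate sorter aliquot of 1 set, so p-values measure only the spread between these libraries, which may be technical.

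The labels were first read against marker genes. The lists held 8841 and 6275 H3K4me3 peaks in ERY and 7578 and 13222 in iMK, and 21768 to 25750 H3K27ac peaks in each of the other 4 lists. The lists give no read depth, and the depths that the study tabulates are not used here, so no counting error is attached to a value. All 8 erythroid markers had H3K27ac on the gene or within 1 kb of it in both ERY libraries, and 2 of 8, Klf1 and Tfrc, in each iMK library. Of 8 megakaryocyte markers, 2 had H3K27ac in each iMK library, Itgb3 (which encodes CD61) and Vwf. Among those with none there were Itga2b, which encodes CD41, Gp1ba and Gp9. Gp9 and Gp1ba, genes of the platelet receptor for von Willebrand factor, were covered to 100% and 93.5% on average in ERY. With Vwf these 3 passed limma's coverage test, described below, as higher in ERY. Of the 5 megakaryocyte markers tested, 1, Itgb3, passed as higher in iMK. Of all tested genes 18.8% and 16.1% passed in these directions. Of 8 myeloid markers, 7 had H3K27ac in each iMK library, though not the same 7 in both. In limma's test 4 of the 8 passed as higher in iMK, beside 16.1% of all tested genes. The mean coverage of that list was 41.0% in iMK replicate 1 and 61.2% in replicate 2, where the ERY libraries had 1.31% and 0%. The iMK libraries thus had no listed H3K27ac at most megakaryocyte markers and had it at most myeloid markers, and they are called the libraries labelled iMK. The part of other cell types in the differences given here was not tested.

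Hemoglobin is a tetramer of alpha-like and beta-like globin chains around heme. Hba-a1 and Hba-a2 encode the adult alpha chain, Hba-x encodes the zeta chain of the embryonic hemoglobins, and Hbq1b and Hbq1a are theta globin genes. The alpha globin genes of mammals sit in gene-dense chromatin beside genes used in most cell types. Their erythroid enhancers lie far upstream, for the most part in introns of Nprl3, and are bound by GATA1 with TAL1, NF-E2 and KLF1. Nprl3 encodes a subunit of the GATOR1 complex, which restrains mTORC1. Mpg encodes a DNA glycosylase of base excision repair, Rhbdf1 an inactive rhomboid protein that acts on ADAM17, and Snrnp25 a protein of the minor spliceosome. The globin genes are all on the plus strand, Hba-x at 32276400 to 32278116, Hba-a1 at 32283511 to 32284465, Hbq1b at 32286965 to 32287784, Hba-a2 at 32296489 to 32297298 and Hbq1a at 32300069 to 32300873. Left of them lies Nprl3 (32225628 to 32267707, minus strand), which overlaps Mpg (32226505 to 32232700, plus strand), then Rhbdf1 (32209585 to 32222300, minus strand) and Snrnp25 (32205415 to 32208984, plus strand).

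The DNA that these genes start from is shown for 4 members, 1 of each kind of globin gene (Hba-x, Hba-a1 and Hbq1b), since H3K4me3 was listed at some kinds and not at others, and Mpg, which carried both marks in all 8 lists. Each is the run of 250 bases before the RefSeq start on GRCm38.p6, the assembly that mm10 names, all on the plus strand: chr11:32276350-32276599, chr11:32283422-32283671, chr11:32286714-32286963 and chr11:32226255-32226504. RefSeq promoters were found for 8 of the 9 members, not for Rhbdf1. The RefSeq start of Hba-x lies 200 bp and that of Hba-a1 161 bp past the GENCODE start, and distances to peaks are from the GENCODE starts. Capitals mark matches, on either strand, to the GATA words AGATAA and TGATAA or AGATAG and TGATAG, to the NF-E2 word GCTGAGTCA, to the KLF word CCNCNCCC, to CCAAT and to the TATA words TATAAA and CATAAA.
Hba-x: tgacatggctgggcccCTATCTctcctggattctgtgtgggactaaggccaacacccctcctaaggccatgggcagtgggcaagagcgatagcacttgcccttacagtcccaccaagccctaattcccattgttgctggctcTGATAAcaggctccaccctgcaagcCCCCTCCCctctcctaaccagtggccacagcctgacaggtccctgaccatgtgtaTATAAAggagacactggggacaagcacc
Hba-a1: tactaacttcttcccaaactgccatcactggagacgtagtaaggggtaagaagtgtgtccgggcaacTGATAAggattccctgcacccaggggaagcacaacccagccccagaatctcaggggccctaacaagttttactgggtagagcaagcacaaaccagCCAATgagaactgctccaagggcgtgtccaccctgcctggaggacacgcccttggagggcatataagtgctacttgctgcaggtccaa
Hbq1b: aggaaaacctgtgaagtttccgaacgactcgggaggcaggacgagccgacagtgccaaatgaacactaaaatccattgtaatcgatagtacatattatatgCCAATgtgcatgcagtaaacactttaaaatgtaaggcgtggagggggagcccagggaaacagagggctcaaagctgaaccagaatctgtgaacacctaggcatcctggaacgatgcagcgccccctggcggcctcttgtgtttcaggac
Mpg: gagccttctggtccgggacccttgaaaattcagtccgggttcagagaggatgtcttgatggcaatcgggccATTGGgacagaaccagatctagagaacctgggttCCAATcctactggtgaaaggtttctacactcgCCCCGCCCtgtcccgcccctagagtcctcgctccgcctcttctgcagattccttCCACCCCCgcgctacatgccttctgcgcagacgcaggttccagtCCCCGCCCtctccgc

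Hba-a1 had the GATA word TGATAA 183 bases and CCAAT 88 bases before its RefSeq start, and Hba-a2 had the same words 186 and 91 bases before its own. The promoters of these adult genes are copies: over 297 aligned bases they had 0 mismatches, their windows being set 3 bases apart. Over the genes with 1 kb on each side, the longest stretch that Hba-a1 and Hba-a2 share without a difference was 1022 bp. The theta genes were less alike, with 14 mismatches in 300 bases and a longest shared stretch of 227 bp. Hba-x had TGATAA 108 bases, a KLF word 83 bases and TATAAA 28 bases before its start, and AGATAG on the other strand 234 bases before it. Hbq1b and Hbq1a each held CCAAT 149 bases before the start. Snrnp25 held 3 CCAAT matches and 2 GATA words, 1 of them 20 bases before its start and the other 27 bases past it, both on the other strand. Mpg held 3 KLF and 2 CCAAT matches, and Nprl3 4 KLF matches that overlap in 1 run and 1 TATA word. In the whole 300 bases from 250 before to 50 after the start, a GATA word was found in 4 of the 8 member promoters and in 26.2% of 16522 protein-coding promoters. For CCAAT this was 6 of 8 against 38.3%, for KLF 3 of 8 against 56.5%, for the TATA words 2 of 8 against 20.6%, and for NF-E2 0 of 8 against 0.375%. The member counts take each copy as a separate promoter, so a word shared by Hba-a1 and Hba-a2, or by Hbq1b and Hbq1a, counts for both. The matches are a description of letters and not of bound sites.

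The introns of Nprl3 were read in the same way, in 300-base windows set every 100 bases between exons of protein-coding transcripts. The 3 windows with most kinds and then most matches of the GATA, NF-E2 and KLF words, with no overlap, are printed here because they hold the densest such letters of the introns in which the enhancers lie, and capitals mark the matches. They are on the plus strand, opposite to the direction of Nprl3, at chr11:32240954-32241253 in intron 7, chr11:32256169-32256468 in intron 2 and chr11:32235822-32236121 in intron 10 of the Nprl3 transcript with 13 exons. Their centres lie 42.4, 27.2 and 47.5 kb before the annotated start of Hba-a1.
Intron 7: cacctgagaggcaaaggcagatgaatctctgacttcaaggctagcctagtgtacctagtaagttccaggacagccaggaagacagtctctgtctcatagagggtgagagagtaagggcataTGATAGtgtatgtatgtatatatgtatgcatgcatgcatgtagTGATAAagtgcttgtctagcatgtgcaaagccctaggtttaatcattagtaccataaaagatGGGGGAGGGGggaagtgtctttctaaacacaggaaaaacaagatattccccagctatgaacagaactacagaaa
Intron 2: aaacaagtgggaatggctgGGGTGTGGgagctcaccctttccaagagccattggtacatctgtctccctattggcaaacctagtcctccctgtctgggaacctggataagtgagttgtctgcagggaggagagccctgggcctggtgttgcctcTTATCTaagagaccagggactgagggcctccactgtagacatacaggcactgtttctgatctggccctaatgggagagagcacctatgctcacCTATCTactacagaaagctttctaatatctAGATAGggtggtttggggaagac
Intron 10: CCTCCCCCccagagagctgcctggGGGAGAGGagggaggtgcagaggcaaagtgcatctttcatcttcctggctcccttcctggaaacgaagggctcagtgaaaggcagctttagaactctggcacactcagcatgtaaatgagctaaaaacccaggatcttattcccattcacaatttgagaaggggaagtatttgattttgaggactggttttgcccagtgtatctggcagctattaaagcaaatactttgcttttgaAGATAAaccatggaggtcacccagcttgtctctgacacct

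All bases of these 3 windows lay inside H3K27ac peaks in both ERY libraries and in no peak of either mark in the other 6 lists. This does not set them apart from the rest of the Nprl3 introns. Those introns together were covered to 100% and 99.4% by H3K27ac in ERY and to 0% to 1.89% in the other 6 lists. The intron 2 window was the one of the 3 that held CTG followed 7 to 9 bases later by AGATAA, an arrangement that GATA1 and TAL1 bind together and whose last part is itself a GATA word. Of 294 Nprl3 intron windows, 2.38% held this pair, against 1.04% of 471093 such windows on chromosome 11. Neighbouring windows overlap, so 1 match can count in several of them. The Nprl3 introns held 3 matches to the pair, and 7 windows were counted. A GATA word was in 38.1% against 44.8%, a KLF word in 22.8% against 21.3%, and at least 2 of the 3 kinds in 8.16% against 8.29%. The full NF-E2 word was in 0 of the 294 windows and in 0.448% of those on the chromosome. The absence of a word says only that those letters were not in the window.

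In ERY, H3K27ac formed an almost unbroken domain that started at the Mpg promoter, ran through all of Nprl3 upstream of it and ended just past Hbq1a. In ERY replicate 1 this was 1 peak of 75.6 kb (chromosome 11, 32226401 to 32302000) with a fold over control of 10.7. In ERY replicate 2 it was 4 peaks from 32226401 to 32302400, which covered 98.4% of 76 kb. The left edge was at the same base in both, 104 bp before the annotated start of Mpg, and the right edges lay 1127 and 1527 bp past the end of Hbq1a. The 3 gaps of replicate 2 were 400 bp each, which is the smallest gap between neighbouring peaks in every one of the 8 lists. The gaps lay over the last exons of Mpg and Nprl3, across exon 11 of Nprl3 and its flanking introns, and in intron 1 and exon 2 of Hba-x.

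**Figure D1:**
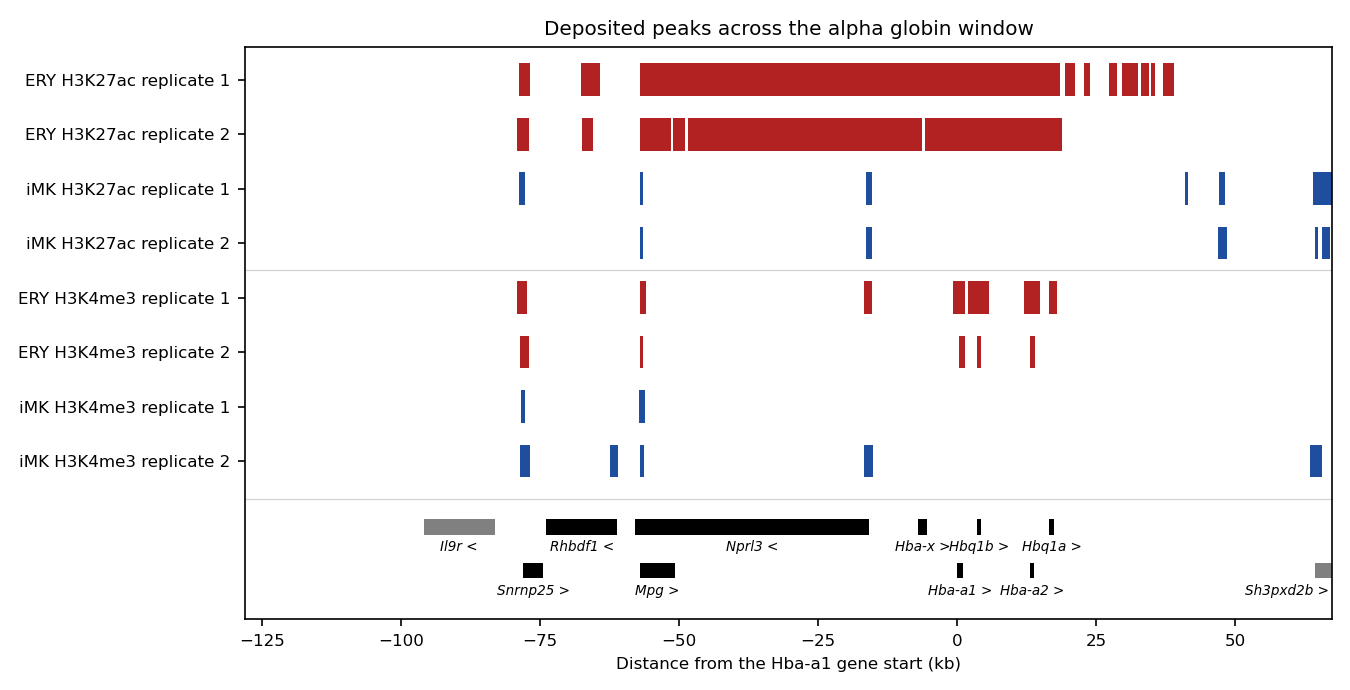
Deposited peaks in the alpha globin window; the horizontal axis is the distance in kb from the annotated start of Hba-a1, each row is 1 library (red ERY, blue labelled iMK), and bars below are genes (black members, grey other genes; > and < give the strand). The H3K27ac rows of ERY are filled from Mpg to Hbq1a, a span of 75.6 and 76 kb, while the iMK rows there hold short peaks at the starts of Mpg and Nprl3.

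The domain stood out in its own lists. At 75.6 kb it was the widest of the 25750 peaks of ERY replicate 1 and ranked 328th by fold. In replicate 2 the peak over the upstream part of Nprl3 and the 5' part of Hba-x was 42.2 kb wide with a fold of 8.36, and the peak over the other globin genes was 24.8 kb wide with a fold of 9.04. They ranked 6th and 74th by width and 389th and 282nd by fold among 21768 peaks. The 2 peaks over Mpg and the 3' end of Nprl3 were lower, with folds of 2.54 and 2.70 and widths of 5.6 and 2.2 kb, and the list's median fold was 2.77. When peaks up to 400 bp apart were joined in every list, a choice made after seeing the data, the domain ranked 2nd by width in replicate 1 and 3rd in replicate 2, at 75.6 and 76 kb. The median width in both ERY lists was 2000 bp. In the H3K27ac lists labelled iMK it was 1600 and 1800 bp, and their widest peaks anywhere were 16400 and 23600 bp.

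**Figure D2:**
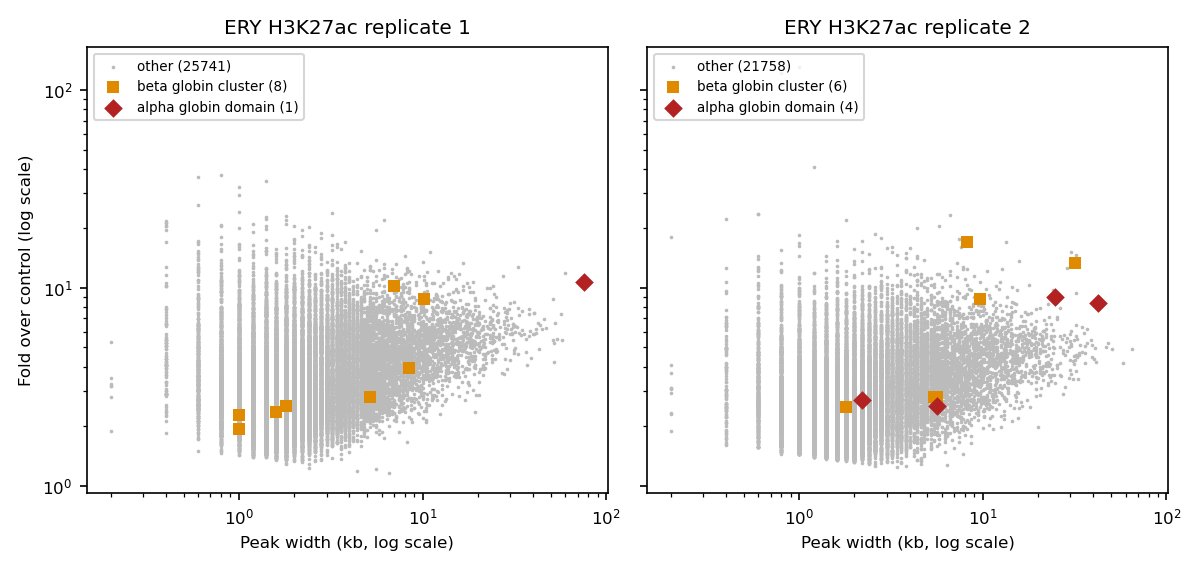
Width (kb) against fold over control for every H3K27ac peak of ERY replicate 1 (left) and replicate 2 (right), both axes on log scales; red diamonds are peaks of the alpha globin domain, orange squares those of the beta globin cluster, grey points all others. The alpha globin peak of 75.6 kb lies at the right end of the left panel.

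Each of the 12 introns of Nprl3 lay whole inside H3K27ac peaks in ERY replicate 1, and 10 of them did in replicate 2, where introns 10 and 11 were covered to 95.8% and 79.4%. Together the introns were covered to 100% and 99.4% in the ERY libraries. In both libraries labelled iMK the covered share was 1.28%, all of it in intron 1, at the start of the gene. The stretches between Nprl3 and Hba-x, Hba-x and Hba-a1, Hba-a1 and Hbq1b, Hbq1b and Hba-a2, and Hba-a2 and Hbq1a were covered to 100% in both ERY libraries. In the libraries labelled iMK none of these 5 had H3K27ac apart from 5.67% of the first, which belongs to the Nprl3 promoter peak. To the left of the domain the gap between Rhbdf1 and Nprl3 had no H3K27ac peak in any library. To the right the ERY replicates differed: 7 peaks of 0.6 to 2.8 kb followed in replicate 1, and no further peak was listed in replicate 2. Of the 50 kb past Hbq1a, 24.7% was covered in replicate 1, the end of the domain included. In replicate 2 it was 3.05%, which is the end of the domain alone.

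**Figure D3:**
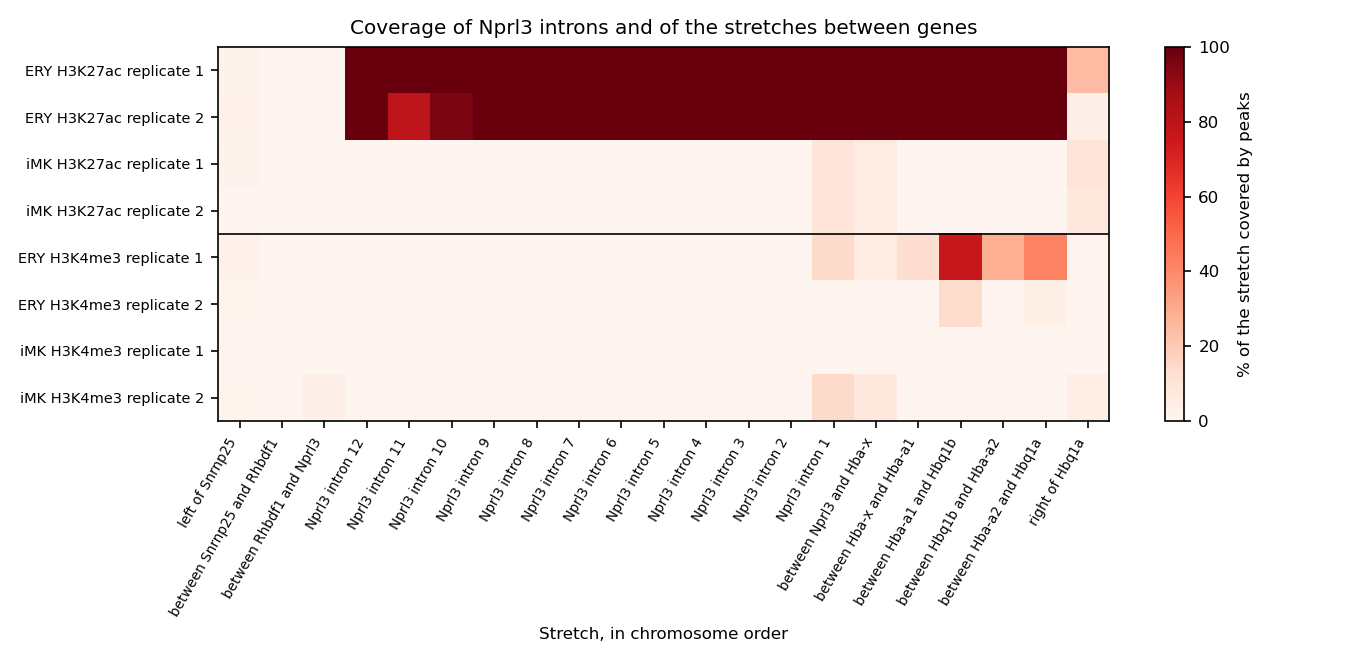
Percent of each Nprl3 intron and of each stretch between genes covered by peaks (colour, 0 to 100%), in chromosome order from left to right, with 1 row per library. The H3K27ac rows of ERY run from 79.4% to 100% over Nprl3 introns and stretches between globin genes, and the H3K4me3 row of ERY replicate 1 reaches 76.0% between Hba-a1 and Hbq1b.

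Over the whole window the share covered by H3K27ac was 47.2% in ERY replicate 1 and 40.3% in replicate 2, against 4.13% and 2.87% in the libraries labelled iMK, means of 43.7% ± 4.85 and 3.50% ± 0.895 (SD, n = 2 each). The groups did not overlap, and the difference of 40.2 percentage points exceeded both SDs. Over the whole genome the ERY lists also covered more, 77.0 and 64.9 Mb against 42.9 and 53.2 Mb in those labelled iMK. Their median folds were lower, 3.06 and 2.77 against 5.79 and 5.65. The part of this in the difference over the window was not tested. No test was run on this value, because the smallest two-sided p that exact permutation of 2 against 2 libraries allows is 0.333. The ERY replicates shared 78.2 kb of H3K27ac in the window, 84.8% of that in replicate 1 and 99.2% of that in replicate 2. Only 1.8 kb of this was also covered in both libraries labelled iMK, all at the promoters of Mpg and Nprl3. H3K4me3 covered 7.47% and 2.46% of the window in ERY and 1.02% and 3.89% in the libraries labelled iMK, and these ranges overlapped. The H3K4me3 difference of 2.51 percentage points was 0 without ERY replicate 1, 5.01 without ERY replicate 2, 1.07 without iMK replicate 1 and 3.94 without iMK replicate 2.

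Whether each gene differed between cell types was asked with limma's moderated test on coverage, the percent of the gene and 1 kb on each side that lies in peaks, fitted over all covered genes with Benjamini-Hochberg adjustment at 0.05. For H3K27ac, 7 of 9 members passed as higher in ERY and 0 as higher in iMK, where 18.8% and 16.1% of 12997 genes tested passed in these directions. The median difference was 94.6 percentage points over the members and 0.612 over all tested genes. The 7 lie in the same domain and in part in the same peak, so they are not independent of each other. Without 1 library at a time, 6 to 8 members passed. Of all 4526 genes that passed, 53.9% were higher in ERY, and this share was 34.9% with only peaks of fold 3 or more and 22.6% to 80.8% without 1 library. Without ERY replicate 1, 2920 genes passed.

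The adult and theta globin genes gave the same values. H3K27ac covered 100% of Hba-a1 in each ERY library and 0% in each library labelled iMK, and so it was for Hba-a2, Hbq1b and Hbq1a. The difference of 100 percentage points had an SE of 1.74 and a limma adjusted p of 0.00519 for each of the 4 (n = 2 per group). With equal replicates this SE rests on the spread shared across genes. Such a pattern, whole coverage in both ERY libraries and none in the others, was found at 23 of the 21938 genes, or 0.105%. Hba-x, the embryonic gene, was covered to 100% and 89.2% in the ERY libraries, with no peak in either library labelled iMK. It passed with a difference of 94.6 (SE 4.81, limma adjusted p = 0.00632, n = 2 per group). Its adjusted p was 0.0596 without iMK replicate 1 and 0.0605 without iMK replicate 2, where the lone library is assumed to vary like the other group. H3K27ac thus lay over the embryonic gene as well as the adult genes in adult bone marrow erythroblasts.

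Nprl3 and Mpg, the neighbours inside the domain, were marked in both cell types but over different lengths. Nprl3 was covered to 96.0% and 94.2% in ERY and to 4.08% in each library labelled iMK, a difference of 91.0 (SE 1.91, limma adjusted p = 0.00519, n = 2 per group). In each library labelled iMK this came from 2 peaks. The wider, of 1.2 kb, lay over the start of Nprl3 and reached 706 bp into it, with folds of 10.2 and 8.02, and the other was the Mpg start peak, which lies in the 3' end of Nprl3. Mpg was covered to 89.1% and 84.2% in ERY and to 7.32% in each library labelled iMK, a difference of 79.3 (SE 2.71, limma adjusted p = 0.00519, n = 2 per group). That peak was 0.6 kb wide in those libraries, with folds of 10.3 and 8.20. With only peaks of fold 3 or more, the Mpg difference was 37.2 and no longer passed (limma adjusted p = 0.508), since the ERY replicate 2 peaks over Mpg had folds of 2.54 and 2.70. Mpg overlaps the 3' end of Nprl3 on the other strand, and peaks carry no strand, so a peak there counts for both genes.

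Rhbdf1 and Snrnp25, left of the domain, did not pass. H3K27ac coverage of Rhbdf1 was 23.1% and 13.6% in ERY and 0% in both libraries labelled iMK (difference 18.3, SE 4.01, limma adjusted p = 0.0568, n = 2 per group). It came from 1 peak inside the gene, of 3.4 kb in replicate 1 (fold 2.39) and 2 kb in replicate 2 (fold 1.71), which shared 32216001 to 32218000 on chromosome 11, mostly intron 1. The annotated start of Rhbdf1 lay 3100 and 4101 bp from the nearest H3K27ac peak in the ERY libraries. Rhbdf1 passed after quantile normalization (limma adjusted p = 0.0122) and with flanks of 10 kb, which reach into the domain (limma adjusted p = 0.0113). It did not pass with the gene body alone, no coverage filter, equal numbers of top peaks or no trend (limma adjusted p from 0.0561 to 0.109). With only peaks of fold 3 or more it had no coverage to test. The difference was 13.6 without ERY replicate 1 and 23.1 without ERY replicate 2. Snrnp25 had 35.9% and 35.7% in ERY and 21.5% and 0% in replicates 1 and 2 labelled iMK (difference 25.0, SE 9.06, limma adjusted p = 0.139, n = 2 per group). Without iMK replicate 1 its adjusted p was 0.0105, and with flanks of 10 kb, which reach into Rhbdf1, it was 0.0305. The folds of its ERY peaks were 7.19 and 1.52.

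**Figure D4:**
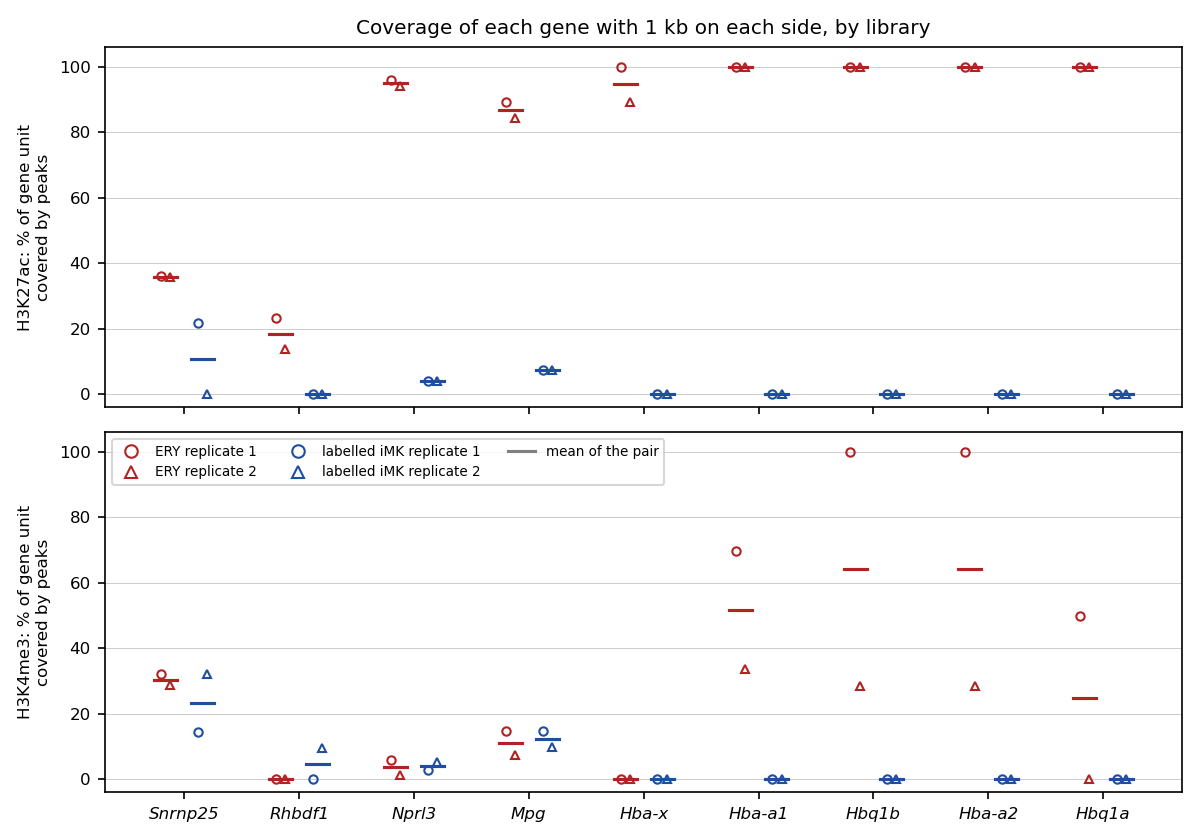
Percent of each member gene with 1 kb on each side covered by H3K27ac (upper panel) and H3K4me3 (lower panel) peaks; each point is 1 library (red ERY, blue labelled iMK, circles replicate 1, triangles replicate 2) and bars are means of 2. In the upper panel the ERY points of Nprl3, Mpg and the globin genes lie between 84.2% and 100%, and in the lower panel the ERY replicates of Hbq1b and Hba-a2 lie far apart, at 100% in replicate 1 and at 28.4% and 28.5% in replicate 2.

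H3K4me3 sat at the adult and theta globin genes in ERY and not over Nprl3 introns other than the start of intron 1. No member passed limma's test for this mark in either direction, and neither did any other gene (0% of 12378 tested in each direction, smallest adjusted p = 0.738). At an unadjusted p under 0.05, 73 genes were higher in ERY and 557 in iMK, with 1 of the 8 tested members, Hba-a1, among the former. Without iMK replicate 1, 4116 genes passed, 36 of them higher in ERY, and without iMK replicate 2, 1067 passed, 54 of them higher in ERY. The one member among these was Rhbdf1, higher in iMK without iMK replicate 1 (limma adjusted p = 0.00112). Coverage of Hba-a1 was 69.9% in ERY replicate 1 and 33.8% in ERY replicate 2, and 0% in both libraries labelled iMK. For Hba-a2 it was 100% and 28.5% in ERY, and for Hbq1b 100% and 28.4%, with 0% in both libraries labelled iMK. The ERY libraries thus had peaks at these 3 genes in each replicate, but replicate 1 covered more of each gene. The replicate 1 peaks at Hba-a1 and Hbq1b ranked 6583rd and 7376th by fold among 8841. With only the top 6275 peaks by fold in each list, these were left out. The difference was then 16.9 percentage points at Hba-a1 and 14.2 at Hbq1b, from 51.9 and 64.2. At Hba-a2 it stayed at 64.2. Hbq1a had 49.9% in ERY replicate 1 and 0% in the other 3 libraries. Hba-x had no H3K4me3 peak in any library, with the nearest one 6401 and 7401 bp from its start in ERY.

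The shape of the globin H3K4me3 peaks differed between the ERY replicates. In replicate 1 they were 2 kb at Hba-a1 (fold 4.21), 3.8 kb at Hbq1b (3.60), 3 kb at Hba-a2 (5.45) and 1.4 kb at Hbq1a (2.01), and each contained the annotated start. In replicate 2 they were 1 kb at Hba-a1 (fold 4.07), 0.8 kb at Hbq1b (6.32) and 0.8 kb at Hba-a2 (3.91). They began 290, 36 and 112 bp past the annotated GENCODE starts. The RefSeq start lies 161 bp past the GENCODE start at Hba-a1 and 3 bp past it at Hba-a2. The values of 290 and 112 bp thus differ in part through the gene models. All of the H3K4me3 in the window in replicate 2, and 98.6% of that in replicate 1, lay inside H3K27ac of both ERY libraries. Reads from identical stretches of Hba-a1 and Hba-a2 cannot be told apart. The ChIP-seq pipeline in the study's methods kept reads that match several places. That pipeline names MACS and another version of Bowtie than the processing notes of these lists, which name SICER. Whether these lists kept such reads is not stated, and if they did, the values of these genes may share reads.

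Mpg and Snrnp25 carried H3K4me3 in all 4 libraries. Mpg had 14.6% and 7.32% in ERY and 14.6% and 9.76% in the libraries labelled iMK, and Snrnp25 had 32.1% and 28.7% against 14.4% and 32.3%. The groups overlapped for both genes. At the Nprl3 promoter a peak was listed in ERY replicate 1 (1.4 kb, fold 6.35) and in replicate 2 labelled iMK (1.6 kb, fold 4.83), and in neither of the other 2. Rhbdf1 had a peak at its start in replicate 2 labelled iMK only (1.4 kb, fold 2.40).

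By promoter calls (any peak base within 1 kb of any annotated start), 6 members were ERY-only for H3K27ac, called in both ERY libraries and in neither labelled iMK, a class that held 2.17% of all genes. These were the 5 globin genes and Rhbdf1, the latter through an internal start at 32217317 and not through the start of the gene. Mpg and Nprl3 were called in all 4 libraries, as were 36.0% of genes, and 0 members were iMK-only, as were 8.56% of genes. Snrnp25 was called in 3 of the 4. With only peaks of fold 3 or more, 5 members, the globin genes, were ERY-only, and 1 member, Nprl3, was called in all 4 libraries. For H3K4me3, Hba-a1, Hbq1b and Hba-a2 were ERY-only, a class of 0.378% of genes. Mpg and Snrnp25 were called in all 4 libraries (24.6% of genes) but 0 with only peaks of fold 3 or more, and 0 members were iMK-only (4.89% of genes). Neighbouring starts share peaks, so these counts are not of independent events.

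The beta globin cluster on chromosome 7 (103812524 to 103853216) was set beside these values. Its 5 genes also had H3K27ac in both ERY libraries and none in the libraries labelled iMK, with 100% coverage of Hbb-bt, Hbb-bs, Hbb-bh1 and Hbb-y and 77.1% ± 4.16 (SD, n = 2) of Hbb-bh2 in ERY. All 5 passed as higher in ERY (limma adjusted p from 0.00519 to 0.00543). Yet its H3K27ac was more broken up: 8 peaks of 1 to 10.2 kb in ERY replicate 1 and 6 peaks of 1.8 to 31.6 kb in replicate 2, which covered 64.6% and 76.4% of the 40.7 kb between the outer genes. In the alpha cluster the span of all members was covered to 82.8% and 79.9%. These are unlike stretches, since the alpha span also holds the 4 genes that are not globin genes. The beta span ends at the outer globin genes, and the peak of 31.6 kb ran on past it to 103878600. H3K4me3 in ERY lay on the adult beta genes Hbb-bt (86.3% and 28.8%) and Hbb-bs (66.3% and 61.7%). No H3K4me3 peak was listed at Hbb-bh1 and Hbb-y, which are expressed in the embryo, or at Hbb-bh2. The clusters were not compared by a test.

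The 5 genes outside the window whose coverage by both marks over the 8 libraries lay nearest to that of Hba-a1 were Gm9945, Hbb-bt, Tspo2, Pdzk1ip1 and Sphk1, at Euclidean distances of 16.8 to 21.3 percentage points. Hbb-bt is an adult beta globin gene, Tspo2 an erythroid relative of the translocator protein gene and Sphk1 a sphingosine kinase gene. Its own neighbours lay farther off on this measure, Hba-a2 and Hbq1b at 30.6 each, Hbq1a at 39.3 and Hba-x at 78.4. The first 3 of these had the same H3K27ac coverage as Hba-a1 and differed from it in H3K4me3 alone.

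Genes of the factors known at the alpha globin enhancers were taken as a list of 14. For H3K27ac, 8 passed as higher in ERY and 0 as higher in iMK, beside 18.8% and 16.1% of all tested genes, with a median difference of 41.6 percentage points against 0.612 over all tested genes. The 8 were Gata1, Tal1, Lmo2, Tcf3, Klf1, Mafk, Bach1 and Zfpm1. Gata1, the erythroid GATA factor, had 62.8% and 64.4% in ERY and 0% in both libraries labelled iMK and was the one of the 14 with an ERY-only promoter, beside 2.17% of all genes. The other 13 promoters were called in all 4 libraries, as were 36.0% of all genes. Zfpm1, which encodes the GATA1 partner FOG1, was covered to 91.5% and 90.5% in ERY and to 3.26% in both libraries labelled iMK. Klf1 had 57.3% and 68.5% against 18.6% and 26.1%. Of 12 genes of heme synthesis and globin chain handling, 11 were found in the annotation (not Ahsp), 9 passed as higher in ERY and 0 as higher in iMK, beside the same 18.8% and 16.1%, with a median difference of 56.6 percentage points. Alas2, the erythroid enzyme of the opening step of heme synthesis, had 58.7% and 55.5% against 0% and 0%. Ube2o, whose product marks excess alpha globin for degradation, had 67.1% and 54.8% against 1.75% and 0.875%. For H3K4me3, 0 of the 14 factor genes and 0 of the 11 others passed.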

How the data were processed

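ChIP-seq with antibodies to H3K27ac (Abcam) and H3K4me3 (Millipore) was given as 1 list of broad peaks per library, with mm10 coordinates. Tools named in the processing notes of the submitters are SICER 1.1 and Bowtie 1.0.0, with no role for either. Each line deposited by the authors holds a peak with its fold, which is a ratio over control, its p-value and its q-value (all q under 0.01). Peak edges fell on multiples of 200 bp, and no read counts are in the lists, so coverage by peaks was used and no precision was taken from depth.

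Gene models were GENCODE vM21 protein-coding genes without the mitochondrial genome, and sequences came from RefSeq GRCm38.p6. Coordinates count from 1. Coverage of each gene with 1 kb on each side was tested per mark with limma 3.58.1 in R 4.3.3 (moderated test with trend, ERY minus iMK, genes covered in at least 1 of 4 libraries), after a check on simulated data. Alternatives were the gene body alone, flanks of 10 kb, no coverage filter, equal numbers of top peaks, fold of at least 3, no trend, quantile normalization, promoters of 2.5 kb, overlaps of at least 200 bp and leaving out each library. Named genes were the members, the other genes of the window, the beta globin genes, the 5 genes nearest to Hba-a1, and factor and hemoglobin genes from fixed lists. The factor genes were to be named where they passed or had a promoter called in 1 cell type, and hemoglobin genes were given by count, with Alas2 and Ube2o named after their values were seen. Values of 1 marker gene are not reported here. Members and lists were chosen with earlier results of these data known.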

Additional observations from a re-analysis of the deposited data

How the results depend on the processing

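No paired analysis was possible because the labels number no replicates. The count of members higher in ERY for H3K27ac stayed at 6 to 9 of 9 under all 11 alternatives, and 0 were higher in iMK. Of all genes, 4526 passed for H3K27ac, and 2920 to 3918 did so without 1 library, the lowest without ERY replicate 1. For H3K4me3, 0 genes passed, against 3 without the coverage filter, and 0 to 4116 without 1 library: 4116 without iMK replicate 1 and 1067 without iMK replicate 2. Members higher in iMK then numbered 0 to 1, the one being Rhbdf1 without iMK replicate 1 (-9.51 percentage points, limma adjusted p = 0.00112). With 1 library in an arm, that library is assumed to vary like the other group. With only peaks of fold 3 or more, promoters called in all 4 libraries numbered 1 for H3K27ac and 0 for H3K4me3. Among H3K4me3 promoters, iMK-only members numbered 0 to 1 without 1 library, again Rhbdf1 without iMK replicate 1. The H3K27ac difference over the window was 34.8 percentage points with fold 3 or more and 79.3 without the flanks of 50 kb, and 36.8 to 43.7 without 1 library. H3K4me3 differences changed sign at Snrnp25 (-1.92 to 16.0 without 1 library, the lowest without iMK replicate 1), at Nprl3 (2.20 after quantile normalization, -2.72 to 1.81 without 1 library, with 1.81 without ERY replicate 2 and 0.907 without iMK replicate 2) and at Mpg (1.53 after quantile normalization, -4.88 to 2.44 without 1 library, with 2.44 without ERY replicate 2 and 1.22 without iMK replicate 1), and none of these passed. The causes were not tested. The lists hold no read depth, so a gene at 0% is one where no peak was listed, not one shown to lack the mark.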

Other observations

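The other protein-coding genes of the window had no peak in ERY. Il9r, the interleukin 9 receptor gene left of Snrnp25, had no peak of either mark in any library. Sh3pxd2b, the gene of an adaptor protein of podosomes to the right of the cluster, had H3K27ac on 4.37% and 2.67% of the gene and its flanks in replicates 1 and 2 labelled iMK and 0% in ERY (difference -3.52, SE 0.722, limma adjusted p = 0.0507), and its promoter was called in both libraries labelled iMK alone. Between Hbq1a and Sh3pxd2b, 1000 bp (chromosome 11, 32330601 to 32331600) was covered by H3K27ac in both libraries labelled iMK and in neither ERY library, centred 30.2 kb past the end of Hbq1a and 16.7 kb before the start of Sh3pxd2b.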
